A study of Mus musculus with 24 samples.

Results

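The step from CD4+CD8+ thymocytes before selection (PreS) to positively selected CD4+CD8low thymocytes (S+) was measured on 9 arrays of B10k mice, the non-autoimmune C57BL10.H2k strain. These 9 of the 24 arrays of the series were taken by their labels, 3 for S+ and 6 for PreS, and no measured value entered the choice. All cells came from healthy female mice of 6 to 8 weeks with the transgenic 3A9 T cell receptor (TCR), which recognizes hen egg lysozyme on the MHC class II molecule I-Ak. S+ cells and 3 of the PreS pools were from mice with this receptor alone (TCR). The other 3 PreS pools were from mice that also carried insHEL, a lysozyme transgene under the insulin promoter (TCR insHEL), so the antigen transgene was present in PreS pools only. PreS cells were sorted as CD69- and negative for 1G12, the antibody to the 3A9 receptor, and S+ cells as CD69+ and 1G12+. Sorting was done in actinomycin D and alpha-amanitin, which stop new transcription, and the RNA was amplified in 2 rounds. Each array gives 1 signal per probeset, on a linear scale and scaled by the authors to the same trimmed mean (150.1 on each array as computed here). Signals under 32 are treated here as near background.

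In positive selection a CD4+CD8+ thymocyte whose receptor binds self peptide on MHC weakly, but well enough, is rescued from death, stops recombining its receptor genes, chooses the CD4 or the CD8 lineage and moves from the thymic cortex to the medulla. Maturing cells then gain the receptors that let them survive on cytokines, travel and leave the thymus. The genes best known from this step are those of the co-receptors, of recombination and of homing, and the description below goes on to the families around them, from the cell surface inward. A list of genes is described by how many of its measured members passed the test on each side and by the median of their differences. These stand beside the same figures for all genes, of which 8.26% were higher and 9.86% lower, with a median log2 difference of 0.05.

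Of 12838 probesets kept, 946 were higher in S+ than in PreS cells and 1212 were lower (limma, Benjamini-Hochberg adjusted p under 0.05), which is 7.37% and 9.44% of those tested. With each gene represented by 1 probeset, 647 of 7831 genes were higher and 772 lower. At least a fold of 2 was reached by 361 of the higher and 501 of the lower genes, and a fold of 4 by 85 and 205, so large falls outnumbered large rises. In 102 of the higher genes the PreS mean was under 32, and in 167 of the lower genes the S+ mean was, and for these the size of the change is not exact. Arrays of a group were alike, with correlations over the probesets of 0.918 to 0.958 among the PreS arrays and 0.898 to 0.933 among the S+ arrays. S+ array 1 stood apart in RNA quality, with a mean log2 ratio of 3' to 5' probesets of the control genes Gapdh and Actb of 4.02, against 1.06 to 2.75 on the PreS arrays and 1.47 and 1.39 on the other S+ arrays, and no PreS array shared its hybridization day. S+ arrays 2 and 3 each shared a day with a PreS array. Within these same-day pairs 944 and 944 of the 946 higher probesets were higher, and 1209 and 1207 of the 1212 lower probesets were lower, but the calls were made with these same arrays, so the signs were nearly fixed and say nothing about the day. With the hybridization day as a block 416 were higher and 699 lower, with the PreS arrays of TCR mice alone 519 and 723, and without S+ array 2 623 and 863. Every gene named below as higher or lower except Dnmt3a kept its call when any 1 of the 9 arrays was left out. Such calls were preferred in naming, so this holds by choice and does not describe the calls in general. Most called genes were also named on the condition that S+ and PreS arrays did not overlap. Among all calls this held for 592 of the 647 higher and 658 of the 772 lower genes. Of all 2158 called probesets 1580, 1426 and 1714 kept their call without S+ array 1, 2 or 3.

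The CD8 genes ran as their gate did. Cd8a fell from 2450.0 ± 539 on the PreS arrays to 283 ± 39.3 on the S+ arrays (mean ± SD, n = 6 and 3) and Cd8b1 from 702 to 188, which describes the sort and is no finding. Cd4 rose from 277 to 995, although both populations were sorted as CD4+. Summed signals of the CD4+CD8+ stage markers (Rag1, Rag2, Dntt, Ptcra, Arpp21, Cd8a, Cd8b1 and Cd1d1) were 5608 to 6856 on the PreS arrays and 1209.8 to 2210.3 on the S+ arrays. Those of 6 maturation markers, of which Ccr7, Il7r, S1pr1, Klf2 and Cd5 were kept in the test, were 1395 to 1675 and 3549 to 4554. Neither pair of ranges overlapped. Of the single markers tested Cd1d1 and Cd5 did not pass (log2 differences 0.78 and 0.49). The first sum includes the gated Cd8a and Cd8b1, so it is in part set by the sort. Of the recombination genes, Rag1, which cuts the receptor gene segments, read 759 to 1229 with a median of 1101 on the PreS arrays and 169.8, 66 and 122 on the S+ arrays (log2 difference -3.22, standard error 0.30, adjusted p = 6.4e-06). Ptcra, the surrogate alpha chain of the pre-TCR, read 221 to 493 with a median of 326 and 67.1, 22.8 and 34.1 (log2 difference -3.17, standard error 0.33, adjusted p = 1.6e-05). Both genes were low on every S+ array and high on every PreS array.

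**Figure D1:**
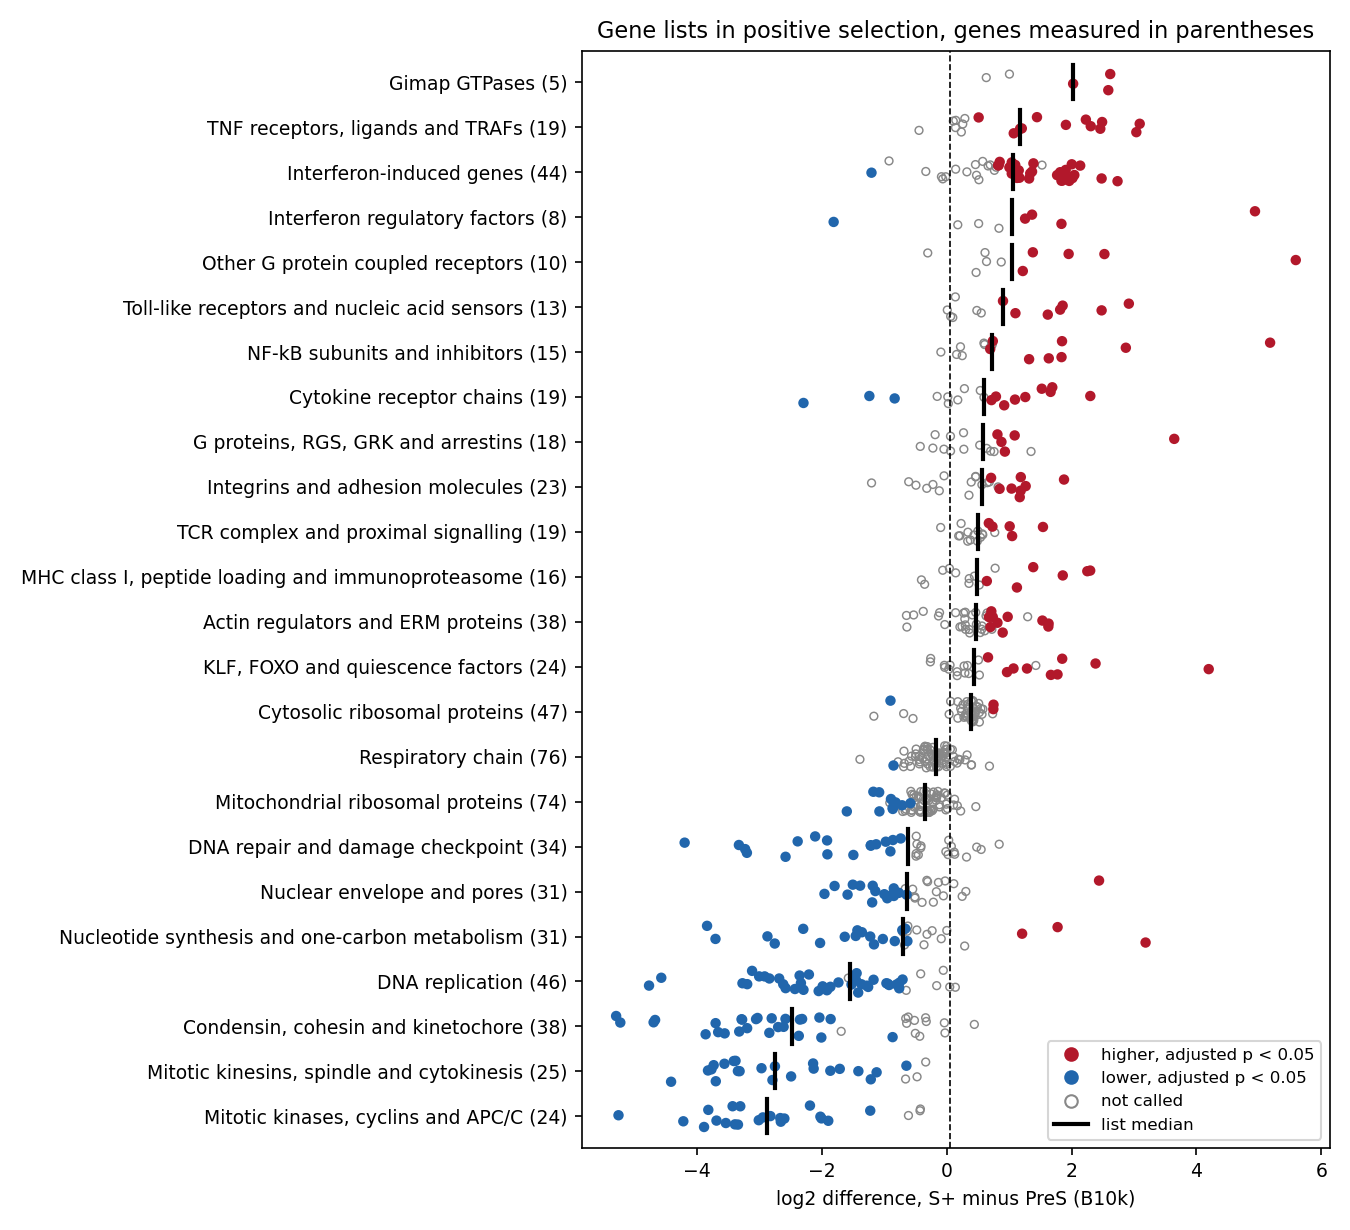
Log2 difference between S+ (n = 3) and PreS (n = 6) arrays of B10k mice for the measured members of 24 gene lists, 1 point per gene. Filled points passed the test (limma, adjusted p under 0.05), open points did not, black bars are list medians and the dashed line is the median of all 7831 genes. Mitotic and replication lists lie left of the line, and TNF receptor, interferon and Gimap lists right of it.

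On the cell surface the broadest rise was in the tumour necrosis factor (TNF) receptor family, whose members pass survival and costimulatory signals to NF-kB through TRAF adaptors. Of 19 measured receptors, ligands and TRAFs 12 rose and 0 fell, with a median log2 difference of 1.18. Tnfsf11, the ligand RANKL, with which thymocytes act on medullary epithelium, read 15 to 29.5 with a median of 15.9 on the PreS arrays and 206, 150.5 and 174 on the S+ arrays (log2 difference 3.09, standard error 0.25, adjusted p = 1.8e-06). All 6 PreS values of Tnfsf11 were at background and all 3 S+ values were well above it. Tnfrsf4, the costimulatory receptor OX40, read 76.5 to 117 with a median of 95.9 and then 599, 438 and 605, a rise of 5.5-fold (adjusted p = 4.9e-06). Tnfrsf18, the receptor GITR of activated and regulatory T cells, read 121 to 203 with a median of 163 and 712, 769 and 824 (4.69-fold, adjusted p = 3.4e-06), and Tnfrsf25, the death domain receptor DR3, rose from a mean of 49.7 to 298 (5.61-fold, adjusted p = 3.9e-06). Tnfrsf9, the receptor 4-1BB, rose from 35.1 to 282 by the probeset used here (adjusted p = 7.4e-05), while 2 further probesets for it did not pass. The costimulatory receptor Cd27, of the same family, did not pass, with means of 456 and 501 (log2 difference 0.14, adjusted p = 0.693). Outside the family Icos, a costimulatory receptor related to Cd28, rose 4.21-fold to 513, 244 and 472 on the S+ arrays, from 64.5 to 163 on the PreS arrays (adjusted p = 0.0004).

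Cytokine receptor chains were remodelled in both directions, with 9 of 19 higher and 3 lower (median 0.60). Il7r, the interleukin 7 receptor that keeps naive T cells alive, read 59.4 to 167 with a median of 97 on the PreS arrays and 505, 417 and 591 on the S+ arrays (log2 difference 2.30, standard error 0.31, adjusted p = 0.00014). Il27ra, the interleukin 27 receptor, rose 3.23-fold, and Tgfbr2, the ligand-binding chain of the TGF-beta receptor, rose 2.87-fold from an already high 614 to 1707 (adjusted p = 0.00016 and 0.00031). Il2ra, the alpha chain of the interleukin 2 receptor, went the other way, from 81.3 to 143 with a median of 105 to 23.8, 28.6 and 19.1, which is background (log2 difference -2.29, standard error 0.20, adjusted p = 3.4e-06). Ifngr1, the ligand-binding chain of the interferon gamma receptor, fell from 928 to 386 (adjusted p = 0.00487), a call lost with hybridization day as a block (adjusted p = 0.108). Cish, a feedback inhibitor that STAT5 induces, rose 2.39-fold to 337, 206 and 229, and of 19 Janus kinases, STATs and SOCS proteins 4 rose and 0 fell.

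Receptors for position and soluble cues showed some of the sharpest contrasts. The chemokine receptor Ccr7, which draws cells to the medulla, read 17.3 to 51.7 with a median of 27 and then 691, 966 and 886, and S1pr1, the exit receptor for sphingosine 1-phosphate, 28.7 to 59.7 with a median of 46.1 and then 179.6, 270.1 and 147 (adjusted p = 4.5e-07 and 4.9e-05). Cxcr4, which holds immature thymocytes in the cortex, read 154 to 254 with a median of 233 and fell to 35, 23.4 and 20.8 (log2 difference -3.15, standard error 0.23, adjusted p = 9.9e-07). Among 10 other G protein coupled receptors 5 rose and 0 fell (median 1.05). Gpr65, a proton sensor, rose 2.6-fold, Adgrg3, an adhesion receptor, 3.87-fold, and Ptgir, the prostacyclin receptor, from a background mean of 24.9 to 215, 126 and 105 (adjusted p = 0.00045, 1.6e-05 and 0.00033). Behind the receptors, 5 of 18 G protein subunits, RGS proteins and arrestins rose and 0 fell. Gng2, a G protein gamma subunit, read 4.6 to 34.2 with a median of 13.6 and then 243, 120.3 and 223, and Rgs19, which shortens G protein signals, rose 1.91-fold (adjusted p = 0.00036 and 0.00118).

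**Figure D2:**
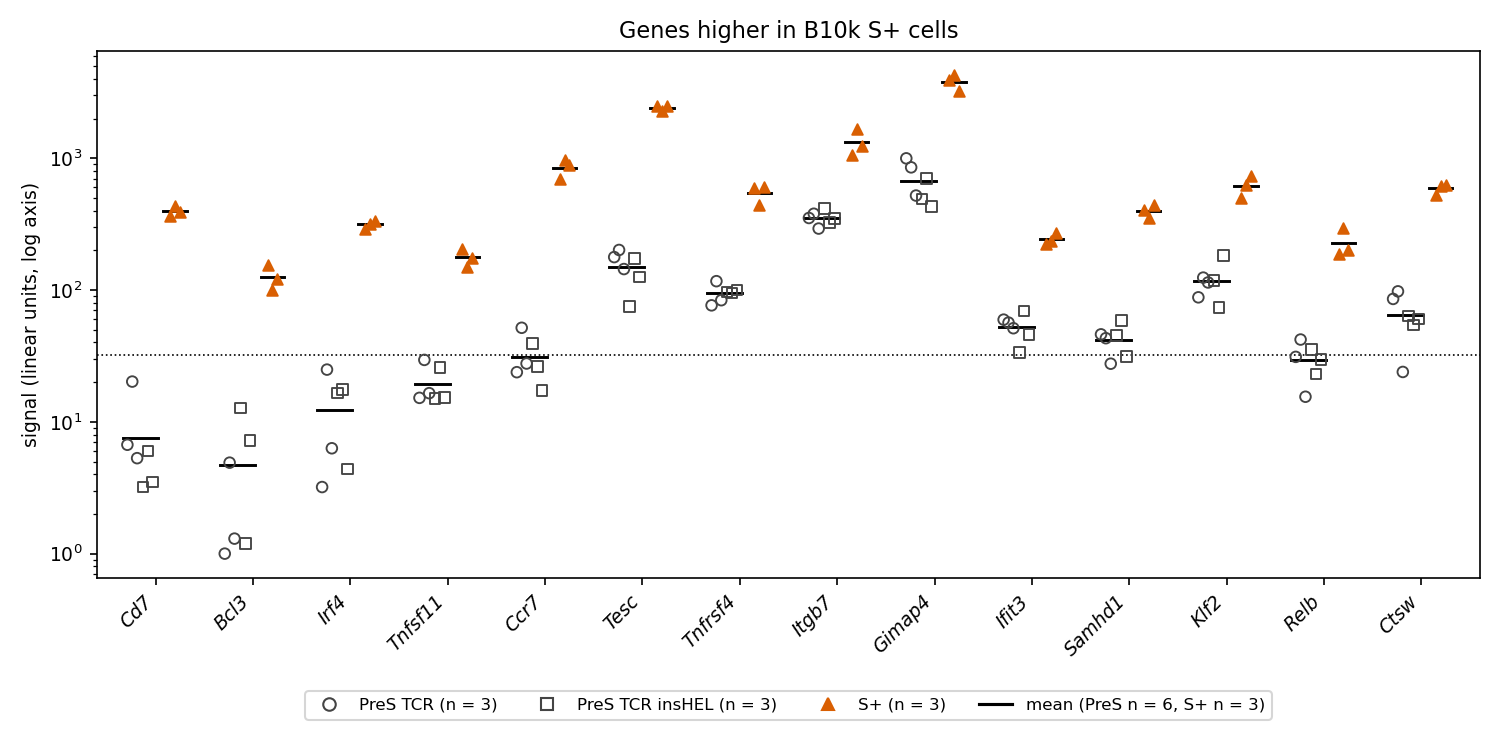
Signal on each B10k array (log axis) for 14 genes that were higher in S+ cells, with 3 PreS TCR arrays (open circles), 3 PreS TCR insHEL arrays (open squares) and 3 S+ arrays (filled triangles), and group means as bars. In each of the 14 genes the lowest S+ value lies above the highest PreS value, which was a condition of naming. For Cd7, Bcl3, Irf4 and Tnfsf11 all PreS values lie under the dotted line at 32.

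Of 23 integrins and other adhesion genes 8 rose and 0 fell (median 0.56). Itgb7, the integrin beta chain of gut-homing T cells, read 293 to 414 with a median of 351 on the PreS arrays and 1063, 1659 and 1246 on the S+ arrays (log2 difference 1.88, standard error 0.19, adjusted p = 1.3e-05). Among GPI-anchored proteins 3 of 10 rose and 2 fell. Cd52, a short sialylated glycoprotein of lymphocytes, rose 3.71-fold to a mean of 4793, and Izumo1r, folate receptor 4, 6.02-fold to 479, 461 and 783 (adjusted p = 0.0001 and 2.9e-06). Ly6d fell from 369 to 1189.7 with a median of 437 to 46.3, 54.5 and 41.8 (log2 difference -3.56, standard error 0.33, adjusted p = 5.7e-06). Other large surface changes were the rise of Cd7, a glycoprotein of T and natural killer cells, from 3.2 to 20.2 with a median of 5.65 to 364, 434 and 389 (adjusted p = 1.1e-06), and of Ms4a4b, a membrane protein of naive T cells, from 199 to 485 with a median of 242 to 1380.4, 1918 and 2139 (log2 difference 2.66, standard error 0.29, adjusted p = 2.3e-05). The class Ib molecule H2-T3, the thymus leukaemia antigen, fell 8.9-fold, from 1815 to 2987 with a median of 2247 to 634, 119 and 225 (adjusted p = 0.00012).

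Classical MHC class I moved against H2-T3. Of 16 class I, peptide loading and immunoproteasome genes 6 rose and 0 fell (median 0.48). Tapbp, tapasin, which holds class I molecules at the peptide transporter, read 214 to 528 with a median of 419 and then 1596, 2920.1 and 1306 (log2 difference 2.25, standard error 0.36, adjusted p = 0.00062). H2-K1 rose 4.92-fold to 1126, 992 and 952 and H2-D1 3.63-fold to 1527, 1422 and 1686 by their brightest probesets (adjusted p = 5e-05 and 1.6e-05). Class I sequences differ between mouse haplotypes and resemble each other, and the probesets disagreed: 1 other probeset for each gene had a negative difference that did not pass. H2-M3, a nonclassical class I molecule that presents formylated peptides, rose 2.61-fold (adjusted p = 0.0002).

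Of 19 TCR subunits and proximal kinases and adaptors 5 rose, 0 fell and 14 did not pass (median 0.50), and the count of higher genes was 3 without S+ array 2 and 3 without S+ array 3. Fyn, a Src kinase, rose 2.91-fold, from 402 to 891 with a median of 537 to 1429, 2202 and 1323 (adjusted p = 0.00079). The receptor subunits Cd3d and Cd3g did not pass, with log2 differences of 0.54 and 0.44 (adjusted p = 0.157 and 0.183). Among the brakes on the signal 5 of 22 rose and 1 fell, with 3 higher without S+ array 2. Rasa3, a GTPase-activating protein that turns Ras and Rap off, read 218 to 391 with a median of 257 and then 1153, 1299.6 and 1067 (log2 difference 2.06, standard error 0.22, adjusted p = 1.9e-05). Dgka, the kinase that removes diacylglycerol, rose 1.94-fold, and Ndfip1, which recruits the ubiquitin ligase Itch, 2.35-fold (adjusted p = 0.00227 and 0.00306). On the calcium side Orai1, the pore of the store-operated calcium channel, rose from 115 to 206 with a median of 155 to 588, 586 and 462 (log2 difference 1.74, standard error 0.21, adjusted p = 7.1e-05).

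Among genes with a mean of at least 100 in both groups the largest rise was that of another calcium-binding protein. Tesc, tescalcin, which binds calcium and a sodium-proton exchanger, read 75.2 to 201 with a median of 159 on the PreS arrays and 2483, 2267 and 2479.6 on the S+ arrays, 16.4-fold apart (log2 difference 4.03, standard error 0.27, adjusted p = 6.2e-07), and its other probeset rose too. Anxa6, annexin 6, a calcium-dependent membrane-binding protein, rose 4.14-fold to 1615, 1744 and 2334 (adjusted p = 1.4e-05), and its other 2 probesets rose as well. Rapgef3, the cyclic AMP-activated exchange factor Epac1 for Rap, fell 11.7-fold, from 715 to 1232 with a median of 860.0 to 104, 55.3 and 81.6 (log2 difference -3.55, standard error 0.29, adjusted p = 2.3e-06). All 4 of its probesets fell.

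Of 38 regulators of the actin cytoskeleton 10 rose, 0 fell and 28 did not pass, with 5 without S+ array 1, 5 without S+ array 2, 6 without PreS TCR insHEL array 1 and 6 without PreS TCR insHEL array 3. Evl, an Ena/VASP protein that lengthens actin filaments, read 224 to 406 with a median of 263 and then 713, 981 and 991 (log2 difference 1.63, standard error 0.22, adjusted p = 0.00016). Enc1, an actin-binding Kelch protein, rose 7.45-fold, from 111 to 316 with a median of 188 to 1944, 1415 and 1093 (adjusted p = 2.1e-05). Sytl2, which ties Rab27 vesicles to the membrane, rose from 45.3 to 97.1 with a median of 72.9 to 450.4, 385 and 376 (log2 difference 2.48, standard error 0.26, adjusted p = 1.7e-05).

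Transcription factors of thymocyte identity moved both ways. Bach2, a repressor that keeps naive T cells from effector fates, was under 32 on all 6 PreS arrays (9.1 to 29.6) and read 564, 994 and 166 on the S+ arrays (adjusted p = 3.1e-05), so the S+ values differed widely among themselves but all stood above every PreS value. Zbtb7b, ThPOK, which fixes the CD4 lineage, rose from 6.8 to 61.4 with a median of 30.2 to 224, 318 and 136, and Id2, an inhibitor of E proteins, from 31.3 to 57.6 with a median of 45.9 to 429, 310.3 and 359.8 (adjusted p = 0.00073 and 8e-07). For Id2 1 of 3 probesets did not pass. Going down were Myb, which sustains the CD4+CD8+ stage, from 1393 to 1737 with a median of 1531 to 453, 356 and 374 (log2 difference -1.95, standard error 0.17, adjusted p = 3.2e-06), and the repressor Gfi1, from 332 to 91.4 (adjusted p = 5.6e-05). All 3 probesets of Myb fell. By their brightest probesets Satb1 and Ets1, both prominent in thymocytes, did not pass, with log2 differences of 0.59 and 0.60 (adjusted p = 0.0846 and 0.0561). Another bright probeset of Satb1 passed as higher (1090.0 to 2020.0, log2 difference 0.95, adjusted p = 0.0142), and its remaining probeset and the 3 others of Ets1 did not. The brightest of Satb1 passed without PreS TCR array 1 (adjusted p = 0.0428), and Ets1 without PreS TCR array 2 or without S+ array 3 (adjusted p = 0.0365 and 0.0437). Of 28 factors of lineage and CD4+CD8+ identity 3 rose and 6 fell, with 2 lower without S+ array 2.

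Of 24 KLF, FOXO and other factors linked to T cell quiescence 9 were higher, 0 lower and 15 not called (median 0.43). Klf2, which drives S1pr1, read 73.8 to 184 with a median of 116 and then 502, 626 and 727 (log2 difference 2.38, standard error 0.27, adjusted p = 3.4e-05). Foxo1, which drives Il7r and Klf2, rose 3.42-fold from 290.0 to 999, and its other 2 probesets rose. Slfn1, a Schlafen protein linked to growth arrest, rose from a PreS range of 3.3 to 60.8 to 547, 260.4 and 944 (adjusted p = 0.00106 and 0.00084). Of 15 NF-kB subunits and inhibitors 8 rose and 0 fell (median 0.73). Relb and Nfkb2, the dimer of the noncanonical pathway that many TNF receptors engage, rose from 29.5 to 188, 293 and 202 and from 36.3 to 99.6, 169 and 133 (adjusted p = 6.3e-06 and 0.00117), though the other probeset of Nfkb2 did not pass. Bcl3, a nuclear cofactor of NF-kB p50 and p52, was at background on the PreS arrays, 1 to 12.7, and read 154, 100.5 and 121 on the S+ arrays (adjusted p = 0.00014). The canonical subunit Rela did not pass, with means of 564 and 674 (log2 difference 0.25, adjusted p = 0.488). Birc3, an inhibitor of apoptosis that acts in this pathway, rose 3.6-fold to 1200.0, 731 and 567 (adjusted p = 0.00095).

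Of 17 calcineurin, NFAT and Egr genes 6 were higher, 1 lower and 10 not called (median 0.51), and 0 were lower without any 1 of PreS TCR arrays 1 and 2, PreS TCR insHEL arrays 2 and 3 and S+ arrays 1 and 2. Nr4a1, Nur77, an orphan nuclear receptor induced by TCR signals, read 80.7 to 226 with a median of 185 and then 926, 826 and 776 (log2 difference 2.30, standard error 0.27, adjusted p = 3.6e-05). Nab2, a corepressor of Egr factors, rose 2.92-fold, Junb 2.37-fold, and Gadd45b, a stress-induced activator of p38 signalling, from 15.3 to 37 with a median of 27.1 to 171, 193 and 239 (adjusted p = 0.00118, 0.00124 and 1.1e-05), with 1 of 3 Gadd45b probesets not passing. Mapk11, p38 beta, rose 4.51-fold (adjusted p = 0.0037). Of 22 Smad and Wnt genes 4 rose and 0 fell, and 8 rose without S+ array 3. Smad7, the feedback inhibitor of TGF-beta signalling, read 24.7 to 74.8 with a median of 61 and then 261, 245 and 214, and Skil, a Smad corepressor, rose 3.29-fold (adjusted p = 0.00047 and 0.00073), beside the rise of Tgfbr2. In the Notch pathway Notch3 fell from 185 to 677 with a median of 509 to 135, 73.6 and 52.6 (log2 difference -2.32, standard error 0.42, adjusted p = 0.00175). Notch1 did not pass, with means of 869 and 488 (log2 difference -0.98, adjusted p = 0.218).

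Genes known for their induction by interferon made up a broad rise, with 27 of 44 measured members higher and 1 lower (median log2 difference 1.07). Many of them carry an interferon-stimulated response element, whose core repeats the letters GAAA. Promoter stretches of 3 of them are shown because these genes rose and carry that repeat. They are from RefSeq, build GRCm38.p6, read 5′ to 3′ along the gene and lie before its start, and capitals mark the letters GAAANNGAA on either strand, with overlapping matches run together.
Ifit1 (chr19:34640768-34640825, plus strand): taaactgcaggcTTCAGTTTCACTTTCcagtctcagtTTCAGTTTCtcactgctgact
Ifit3 (chr19:34583396-34583447, plus strand): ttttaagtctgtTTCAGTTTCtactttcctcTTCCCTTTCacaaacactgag
Ifih1 (chr2:62646347-62646379, minus strand): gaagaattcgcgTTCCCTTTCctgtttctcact
These letters were found between 250 bases before and 50 after a start in 18 of the 33 list members with a promoter entry (54.5%), in 8.32% of 6410 tested genes with an entry and in 8.56% of all 32851 promoter windows. The match describes letters and not binding.

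Ifit1, which binds foreign RNA caps, read 27.3 to 83.1 with a median of 53.6 on the PreS arrays and 650.1, 167 and 534 on the S+ arrays (log2 difference 2.74, standard error 0.43, adjusted p = 0.00052). Ifit3, its partner, read 33.6 to 69.1 with a median of 54 and 222, 236 and 271 (log2 difference 2.14, standard error 0.22, adjusted p = 1.4e-05). Both were low on all PreS arrays, and the lack of overlap between the groups was a condition of naming. Iigp1, an immunity-related GTPase, rose 4.12-fold to 270.2, 456 and 461, and Ifi27l2a 5.82-fold to 1264, 1169 and 1584 (adjusted p = 6.1e-05 and 2.1e-05). The sensors of foreign nucleic acid behaved likewise, with 7 of 13 Toll-like receptors and sensors higher and 0 lower (median 0.90). Ifih1, the RNA sensor MDA5, read 60.4 to 222 with a median of 130.2 and then 394, 494 and 489.6 (log2 difference 1.82, standard error 0.30, adjusted p = 0.00083), Zbp1, a sensor of Z-form nucleic acid, rose 3.62-fold, and Dhx58, the MDA5 cofactor LGP2, from 21.6 to 128 (adjusted p = 0.00052 and 1.8e-05), while a dimmer probeset for Dhx58 did not pass.

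The regulators of these genes split. Of 8 interferon regulatory factors 4 rose and 1 fell (median 1.05). Irf7, which amplifies interferon responses, read 76.9 to 142 with a median of 116 and 301, 469 and 528, Irf9, a DNA-binding factor of the interferon response, 130.2 to 184 with a median of 153 and 442, 296 and 518, and Irf1 316 to 516 with a median of 444 and 851, 1274 and 1001 (adjusted p = 8.6e-05, 0.00077 and 0.00063). Irf4, which TCR signals induce, was under 32 on all PreS arrays and read 292, 317 and 335 on the S+ arrays (adjusted p = 3e-05). Irf8, a factor of myeloid and B cells, fell from 114 to 282 with a median of 179 to 67.9, 32 and 72.7 (log2 difference -1.81, standard error 0.31, adjusted p = 0.00108). Of 27 TRIM ubiquitin ligases 5 rose, among them Trim34a (3.29-fold) and Trim26 (2.85-fold), and 2 fell, among them Trim37 (from 514 to 189, adjusted p = 9.7e-05, 0.001 and 0.00129). Without any 1 of PreS TCR array 2, PreS TCR insHEL arrays 2 and 3 and S+ array 2, only 1 TRIM gene was lower.

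The Gimap genes, GTPases of lymphocyte survival that lie side by side in the genome, were high in S+ cells, with 3 of 5 called and a median of 2.02. Gimap4 read 432 to 998 with a median of 610.4 and then 3923, 4301 and 3227 (log2 difference 2.59, standard error 0.27, adjusted p = 1.5e-05). Gimap3 rose 6.14-fold and Gimap7 4.07-fold (adjusted p = 1.5e-06 and 8.1e-05). Gimap1 and Gimap6 did not pass, with log2 differences of 0.63 and 1.00 (adjusted p = 0.104 and 0.231). Gimap1 passed without S+ array 1 (adjusted p = 0.0208), and Gimap6 with hybridization day as a block (log2 difference 2.06, adjusted p = 0.0223).

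Single proteases of granules and lysosomes moved in both directions. Of 13 granule proteases and chemokines 2 rose and 2 fell. Of 41 lysosome and autophagy genes 4 rose and 1 fell (median 0.11), close to or under the shares of all genes (8.26% and 9.86%). Gzma, the killer cell protease granzyme A, was high on every PreS array, 2223 to 3819 with a median of 2753, and read 371, 226 and 627 on the S+ arrays (log2 difference -2.88, standard error 0.28, adjusted p = 7.6e-06). Ctsw, a cathepsin of cytotoxic cells, moved the other way, from 23.9 to 97.7 with a median of 61.8 to 528, 619.5 and 628 (log2 difference 3.23, standard error 0.31, adjusted p = 8.3e-06). Among the lysosomal cathepsins Ctsl fell, from 517 to 844 with a median of 585 to 139.7, 147 and 203, and Ctss rose, from 196 to 459 with a median of 309 to 1682, 1114 and 1283 (adjusted p = 1.5e-05 and 8.8e-05). Both process antigen and invariant chain in other cells of the thymus. Ctse, an aspartic cathepsin, rose 2.36-fold, and Klk8, a secreted serine protease, read 116 to 237 with a median of 138 and then 419, 1112 and 1473 (adjusted p = 0.00084 and 0.00023). Endou, an endoribonuclease, fell 17.7-fold, from 1269 to 2035 with a median of 1688 to 119.5, 58.4 and 115 (log2 difference -4.15, standard error 0.26, adjusted p = 4.7e-07).

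**Figure D3:**
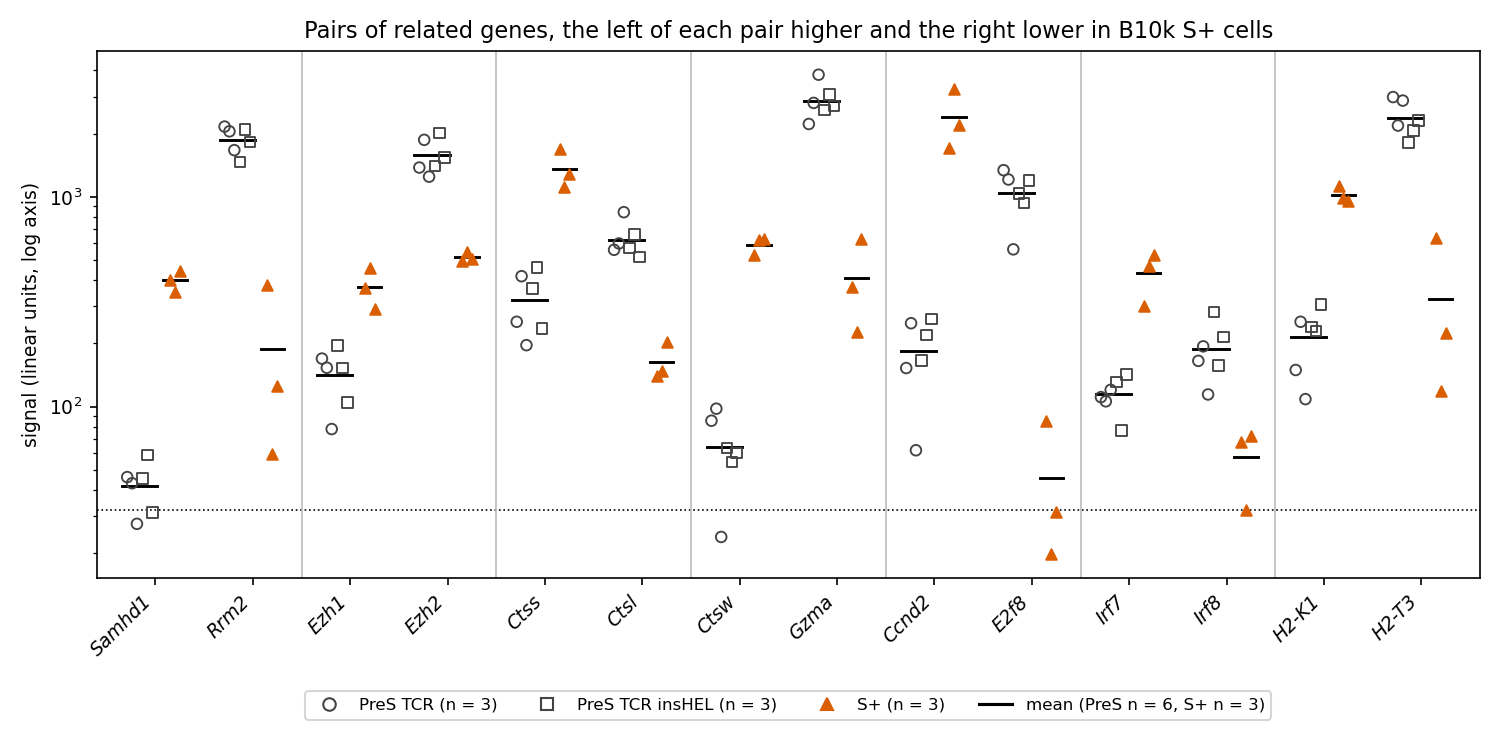
Signal on each B10k array (log axis) for 7 pairs of genes of related function of which the left one rose and the right one fell in S+ cells, drawn as PreS TCR (open circles), PreS TCR insHEL (open squares) and S+ arrays (filled triangles) with group means as bars. In all 14 genes the S+ values and the PreS values do not overlap, which was a condition of naming.

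The broadest change in the data was the fall of the genes of DNA replication and mitosis, and these lists had the lowest medians outside the sort and stage markers and receptor gene assembly. DNA replication opens origins, loads polymerases and joins the new strands. Of 46 replication genes 39 fell and 0 rose (median -1.55). Cdc6, which loads the replicative helicase at origins, read 231 to 578 with a median of 391 on the PreS arrays and 22.5, 6.6 and 21.8 on the S+ arrays (log2 difference -4.77, standard error 0.38, adjusted p = 1.9e-06). Lig1, which seals Okazaki fragments, read 781 to 1522 with a median of 945 and 127, 94.5 and 112 (log2 difference -3.19, standard error 0.22, adjusted p = 7.7e-07). Gins1, a helicase subunit, fell from 284 to 30.2 and Pole, the leading strand polymerase, from 259 to 18.5 (adjusted p = 7.7e-07 and 0.00013). All S+ values of Cdc6 were under 32, while those of Lig1 were well above it. The brightest probeset of Rpa1, which coats single-stranded DNA, did not pass, with means of 3309 and 2825 (adjusted p = 0.569), while its other probeset passed as lower (1090.0 to 571, adjusted p = 0.0324).

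Of 24 mitotic kinases, cyclins and ubiquitin ligase subunits 21 fell (median -2.88), of 38 condensin, cohesin and kinetochore genes 26 fell (-2.47), and of 25 kinesins, spindle and cytokinesis genes 22 fell (-2.75), with 0 higher in any. Many mitotic promoters are held silent outside division through a CHR element, TTTGAA, next to NF-Y boxes, CCAATCA. Stretches of 2 genes that fell and hold both are given from the same table, with both sets of letters in capitals on either strand.
Ube2c (chr2:164769858-164769917, plus strand): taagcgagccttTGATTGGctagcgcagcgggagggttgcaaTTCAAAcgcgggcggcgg
Cdk1 (chr10:69352913-69353006, minus strand): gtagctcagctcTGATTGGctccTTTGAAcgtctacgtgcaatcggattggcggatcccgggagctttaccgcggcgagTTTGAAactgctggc
TTTGAA was found in 8 of 17 list members with an entry (47.1%), in 14.3% of tested genes and in 17.9% of all promoter windows. CCAATCA was found in 8 of 17 (47.1%), in 11.9% and in 7.82%. Among replication genes the E2F letters TTCCCGCC were found in 7 of 39 (17.9%), against 4.79% of tested genes and 2.19% of all windows. CCAATCA and TTCCCGCC were not particular to these lists. Of 18 cholesterol genes with an entry 66.7% held CCAATCA, 16.7% TTCCCGCC and 5.56% TTTGAA.

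Ube2c, the ubiquitin-conjugating enzyme of the anaphase-promoting complex, read 909 to 1331 with a median of 1117 on the PreS arrays and 67, 50.4 and 61.9 on the S+ arrays (log2 difference -4.22, standard error 0.20, adjusted p = 6e-08). Cdk1, the mitotic cyclin-dependent kinase, read 738 to 1374 with a median of 1022 and 106, 44.9 and 70.5 (log2 difference -3.88, standard error 0.28, adjusted p = 8.4e-07), and its small subunit Cks2 1401 to 1996 with a median of 1774 and 204, 114 and 113 (log2 difference -3.62, standard error 0.22, adjusted p = 4.4e-07). The values of Cdk1 and Cks2 on S+ array 1 were the highest of the 3 but far below every PreS value. Mki67, the proliferation antigen Ki-67, fell from 1311 to 97.2, Ccna2, cyclin A2, from 795 to 80.4, and Top2a, topoisomerase II, from 1834 to 215 (adjusted p = 1.2e-06, 2e-06 and 2e-06). The spindle checkpoint kinases Bub1 and Bub1b and the centromere guard Sgo1 fell to 40.0 or lower on each S+ array, from PreS means of 267, 484 and 365. By their brightest probesets Pttg1, securin, and Stmn1, stathmin, did not pass, with means of 3680.0 and 2668, and of 4010.0 and 2776 (adjusted p = 0.243 and 0.103). Stmn1 passed as lower without S+ array 1 (adjusted p = 0.0343), and both passed as lower with the 3' to 5' ratio as a covariate (adjusted p = 0.0285 and 0.0166). All probesets of each gene had a negative difference but they did not agree on the call. A dimmer one passed as lower for Pttg1 (266 to 120.0, adjusted p = 0.000907) and for Stmn1 (194 to 48.4, adjusted p = 0.00024).

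**Figure D4:**
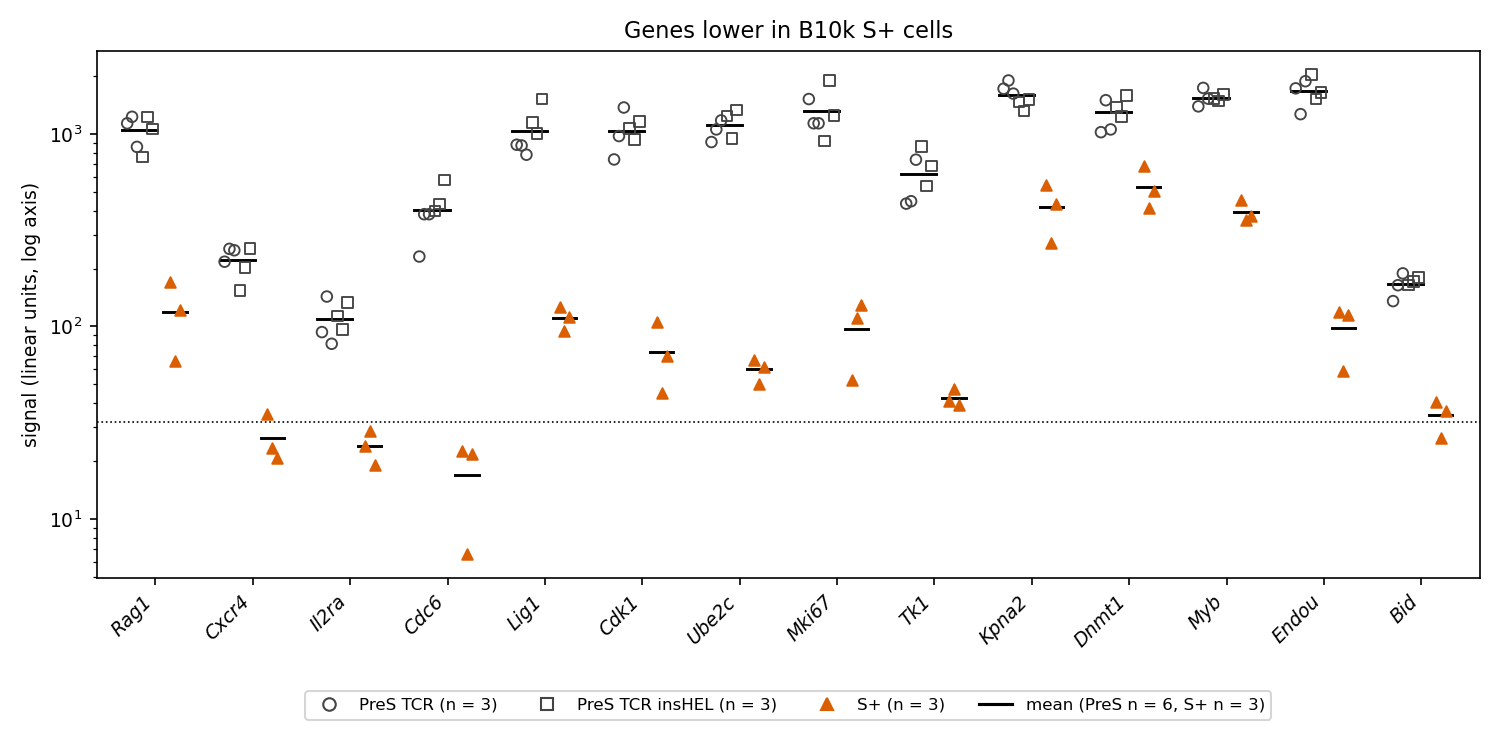
Signal on each B10k array (log axis) for 14 genes that were lower in S+ cells, with 3 PreS TCR arrays (open circles), 3 PreS TCR insHEL arrays (open squares) and 3 S+ arrays (filled triangles), and group means as bars. In each of the 14 genes the highest S+ value lies below the lowest PreS value, which was a condition of naming. The dotted line marks 32.

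At the entry to the cycle the genes did not all move one way. Of 29 G1 cyclins, inhibitors, E2F and Myc network genes 12 fell and 2 rose. Without any 1 of 5 arrays (PreS TCR array 3, PreS TCR insHEL arrays 1 and 3, S+ arrays 1 and 2) only 1 was higher. That gene was Ccnd2, cyclin D2, which in other cells drives entry into the cycle. It read 61.9 to 262 with a median of 192 on the PreS arrays and 1710.3, 3272 and 2206 on the S+ arrays (log2 difference 3.74, standard error 0.38, adjusted p = 1.3e-05), and its other 5 probesets rose by 3.35 to 4.80 on the log2 scale. E2f8, a repressive E2F, fell from 562 to 1339 with a median of 1118 to 85.5, 19.9 and 31.4 (log2 difference -4.76, standard error 0.39, adjusted p = 2.1e-06), Mxd3, a Max partner, from 388 to 25.6, and Ccne2, cyclin E2, from 169 to 13.7 (adjusted p = 2.6e-06 and 1.3e-05). Cdkn1a, the cycle inhibitor p21, also fell, from 57.4 to 177 with a median of 122 to 30.9, 28.2 and 13.2 (log2 difference -2.35, standard error 0.36, adjusted p = 0.00041).

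Of 31 genes of nucleotide and one-carbon metabolism 17 fell and 3 rose, with 11 lower without S+ array 2. Rrm2, the regulated subunit of ribonucleotide reductase, read 1462 to 2161 with a median of 1938 and then 379, 59.3 and 125 (log2 difference -3.70, standard error 0.43, adjusted p = 4.3e-05), Tk1, the S-phase thymidine kinase, 435 to 863 with a median of 609 and 41.2, 47.6 and 38.9 (log2 difference -3.84, standard error 0.25, adjusted p = 6.1e-07), and Dut, which clears dUTP, 1188 to 2179.7 with a median of 1524 and 237, 130.3 and 305 (log2 difference -2.87, standard error 0.26, adjusted p = 5.6e-06). Samhd1, a triphosphohydrolase that degrades deoxynucleoside triphosphates, was at 27.6 to 58.7 with a median of 44.2 on the PreS arrays and at 402, 351 and 442 on the S+ arrays (log2 difference 3.19, standard error 0.22, adjusted p = 7.7e-07). Its other 3 probesets rose too, so that the direction of Samhd1 was opposite to that of Rrm1, Rrm2, Tk1 and Dut on all 3 S+ arrays, with 1 dimmer probeset of Rrm1 not passing.

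Of 34 repair and checkpoint genes 17 fell and 0 rose (median -0.61), with the recombination proteins Rad51ap1 (570.0 to 36.7) and Rad54l (279 to 32.1), the kinase Chek1 (211 to 24.5) and Brca1 (201 to 23, adjusted p = 3.9e-06, 3.2e-05, 2.6e-05 and 2.7e-06). A dimmer Brca1 probeset did not pass. Of 31 nuclear envelope and pore genes 15 fell and 1 rose (median -0.64). Kpna2, an importin alpha, read 1320.1 to 1899 with a median of 1566 and then 544, 272 and 434 (log2 difference -1.96, standard error 0.23, adjusted p = 5.2e-05), and Rcc1 and Ranbp1, which set the Ran gradient, fell 3.01-fold and 2.83-fold (adjusted p = 0.00036 and 0.00376). Of 8 histone genes 5 fell and 0 rose, and H2ax, the variant marked at DNA breaks, fell from 1191 to 2343 with a median of 1542 to 250.3, 371 and 394 (log2 difference -2.21, standard error 0.28, adjusted p = 0.0001).

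Some chromatin genes moved, in both directions. Of 9 DNA methylation genes 2 fell, 1 rose and 6 did not pass. The count of lower genes was 1 without any 1 array other than PreS TCR insHEL array 1, and that of higher genes 0 without S+ array 1 or 2. Dnmt1, the maintenance DNA methyltransferase, read 1023 to 1591 with a median of 1308 and then 678, 415 and 504 (log2 difference -1.27, standard error 0.22, adjusted p = 0.00101), and the de novo methyltransferase Dnmt3a, named after its value was seen, was called higher with overlapping groups (means 214 and 441, adjusted p = 0.0276). Hells, a remodeller needed for DNA methylation, fell from 190.0 to 32.3 (adjusted p = 3.5e-05). In its list, of 36 histone deacetylases, acetylases and remodellers, 3 rose, 2 fell and 31 did not pass, close to or under the shares of all genes. Cbx5 and Cbx1, heterochromatin proteins that bind methylated histone H3, fell 3.25-fold and 2.09-fold (adjusted p = 0.00074 and 0.00054), with some of their other probesets not passing. Ezh2, the polycomb histone methyltransferase of dividing cells, read 1247 to 2016 with a median of 1468 and then 495, 546 and 503 (log2 difference -1.57, standard error 0.19, adjusted p = 6.8e-05). Its relative Ezh1, found more in resting cells, read 78.1 to 196 with a median of 153 and then 366, 456 and 291 (log2 difference 1.37, standard error 0.26, adjusted p = 0.00222), though with hybridization day as a block it did not pass (adjusted p = 0.0535). So the related enzymes moved in opposite directions on every S+ array. Of 27 polycomb and histone methylation genes 6 fell, 3 rose and 18 did not pass, with 3 lower without S+ array 3 and 5 higher without PreS TCR array 1. Of 7 high mobility group genes 3 fell and 0 rose, with Hmgb3 down 5.33-fold and Hmgb2 3.82-fold (adjusted p = 9.6e-07 and 2.3e-05).

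Metabolic genes changed in narrow places. Of 76 respiratory chain genes 1 fell and 0 rose (median -0.17), a share under that of all genes. Of 19 genes of the tricarboxylic acid cycle, pyruvate dehydrogenase and related enzymes 4 fell and 0 rose. These were the isocitrate dehydrogenases Idh1, a cytosolic enzyme outside the cycle, Idh2 and Idh3a, and the fumarase Fh1. Idh1 read 96.3 to 239 with a median of 151 and then 49.5, 18.1 and 39.2 (log2 difference -2.29, standard error 0.33, adjusted p = 0.00027), and Fh1 fell from 942 to 483 (adjusted p = 0.00369), while Mdh2 did not pass (2135 and 2432, adjusted p = 0.498). With hybridization day as a block Idh2 and Fh1 did not pass (adjusted p = 0.127 and 0.126), and with the PreS arrays of TCR mice alone Idh3a did not (adjusted p = 0.0562). The 2 other, dimmer probesets of Idh3a did not pass (adjusted p = 0.192 and 0.198). In glycolysis 4 of 18 genes fell and 3 rose, with 1 higher without S+ array 3. Ldhb, the lactate dehydrogenase B chain, read 1595 to 2138 with a median of 1797 and then 836, 636 and 955 (log2 difference -1.17, standard error 0.20, adjusted p = 0.00088), and all 4 of its probesets fell. Slc16a1, the lactate transporter MCT1, fell from 322 to 760.3 with a median of 664 to 224, 142 and 260.4 (adjusted p = 0.00487). Of 22 cholesterol genes 5 fell and 0 rose, with 3 lower without S+ array 2. Sqle, squalene epoxidase, read 186 to 354 with a median of 268 and then 74, 75.2 and 87, and Idi1, isopentenyl diphosphate isomerase, 176 to 432 with a median of 251 and 43.7, 63 and 82.3 (adjusted p = 9e-05 and 0.00019). By its brightest probeset Hmgcs1, at the head of the pathway, did not pass, with means of 1300.0 and 796 (log2 difference -0.67, adjusted p = 0.159), but passed as lower with the 3' to 5' ratio as a covariate (adjusted p = 0.00755). Of its 3 other probesets 2 passed as lower, with log2 differences of -1.07 and -0.86 (adjusted p = 0.0139 and 0.0359), and the third did not (-0.94, adjusted p = 0.0575).

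Of 37 glycosyltransferases and sialyltransferases, which build surface sugars, 8 rose, 1 fell and 28 did not pass (median 0.28), with 4 higher without S+ array 2. St3gal1, which caps core 1 O-glycans with sialic acid and so masks the binding of peanut agglutinin, the lectin used to tell immature from mature thymocytes, read 38.6 to 65.3 with a median of 55 and then 144, 221 and 272 (log2 difference 1.87, standard error 0.25, adjusted p = 0.00013). St3gal6 rose 2.35-fold and Galnt11, which starts O-glycans, 2.44-fold (adjusted p = 0.00089 and 0.00059). Of 19 sphingolipid and glycolipid enzymes 6 rose and 1 fell, with 3 higher without S+ array 3. B4galnt1, the ganglioside GM2 synthase, read 97.9 to 201 with a median of 178 and then 493, 853 and 738 (log2 difference 2.07, standard error 0.27, adjusted p = 0.00012), and did not pass in a fit of all 24 arrays (adjusted p = 0.0793). Its other, dimmer probeset did not pass.

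In the machinery of protein synthesis and breakdown few genes passed. Over all genes 8.26% were higher and 9.86% lower, and the shares of cytosolic ribosomal proteins and proteasome subunits were near or under these. Of 47 cytosolic ribosomal proteins 43 had a positive difference but only 2 passed as higher and 1 as lower (median 0.40). Without an array these counts fell to 0 or 1 on the higher side for 7 of the 9 arrays, so no member is named. Of 74 mitochondrial ribosomal proteins 11 fell and 0 rose (median -0.35), with 5 lower without S+ array 1 and 4 without S+ array 2. Mrps36 read 223 to 394 with a median of 299.9 and then 109, 79.1 and 121 (log2 difference -1.60, standard error 0.22, adjusted p = 0.00017). Of 34 constitutive proteasome subunits 4 fell, with 0 without S+ array 1 and 2 without either S+ array 2 or PreS TCR array 3. Wdr12, a ribosome assembly factor, fell from 155 to 55.2 (adjusted p = 0.00079). Of 19 redox enzymes Prdx4, the peroxiredoxin of the secretory pathway, fell most, from 235 to 737 with a median of 309.8 to 61, 84 and 138 (adjusted p = 0.00111).

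Several lists cover cell death and stress. Of 25 caspase, apoptosome and inhibitor of apoptosis genes 6 rose and 0 fell (median 0.16), with 1 lower without PreS TCR array 1, 1 higher without S+ array 2, and 3 higher without any 1 of PreS TCR array 1, PreS TCR insHEL arrays 1 and 3 and S+ array 3. Of 21 genes of the p53 pathway and Gadd45 family 4 rose and 1 fell (median 0.20). Of 13 BCL2 family genes 2 rose and 1 fell, with 0 higher without S+ array 1 or S+ array 2 and 1 higher without PreS TCR array 3 or any 1 of the PreS TCR insHEL arrays. Bid, which carries death receptor signals to mitochondria, read 136 to 189 with a median of 168 and then 40.7, 26.4 and 36.4 (log2 difference -2.37, standard error 0.19, adjusted p = 2e-06). Bcl2l1, the survival protein Bcl-xL of CD4+CD8+ cells, did not pass, with means of 409 and 339 (log2 difference -0.31, adjusted p = 0.489). Siva1, a proapoptotic protein, fell 4.2-fold, from 1526 to 2590.3 with a median of 2064 to 506, 336 and 587 (adjusted p = 2e-05), with 1 of its 4 probesets not passing. Sesn3, a sestrin induced by FOXO factors, rose 4.23-fold to 693, 675 and 523 (adjusted p = 8.6e-05).

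Markers of other cells moved little or downward. Summed signals of B cell markers were 1267 to 3864 on the PreS arrays and 882 to 1723 on the S+ arrays, with Blnk, Pax5 and Ebf1 under 32 on all 9 arrays and Cd79b called lower (131 to 42.6, adjusted p = 3.7e-05). Those of myeloid markers were 426 to 1187 and 385 to 682, with Itgam, Fcer1g, Fcgr3, C1qa and C1qc under 32 throughout, and those of red cell markers 79.5 to 359 and 69 to 102. Gamma delta T cell markers summed to 229 to 449 and 105 to 242, where Blk, a Src kinase of B and gamma delta T cells, was called lower (222 to 72.1, adjusted p = 0.00252). The ranges of all these sums, and of those of natural killer and stroma markers, overlapped between the groups. Cd79b is itself a member of the B cell list. The part of other cells in the falls of Irf8 and Cd79b was not tested. In sorted cells a lower signal can mean fewer cells that express a gene or less RNA in each, and the arrays cannot tell these apart.

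The same step was measured in NODk mice, which have the autoimmune-prone NOD background with the H2k haplotype matched to B10k. These were 9 other arrays, 3 S+ and 6 PreS, with the same transgenes and sorts. Of the probesets higher in B10k S+ cells 420 were also higher in NODk, 44.4% of the B10k and 53.4% of the NODk calls, and of those lower 624 were also lower, 51.5% and 56.1%. Of all probesets 6.13% were higher and 8.66% lower in NODk. Of those higher in B10k 0 were lower in NODk, and 1 of those lower was higher. Below the threshold too, 900 of the 946 higher and 1155 of the 1212 lower probesets had a difference of the same sign in NODk. Tested as a difference between the strains in 1 fit of all 24 arrays, 46 probesets (0.358%) differed, 6 toward a more positive value in B10k and 40 toward a more negative one. At an unadjusted p under 0.05 there were 1135. RNA quality moved with strain, since the 3' to 5' log2 ratio was 5.82, 5.15 and 1.59 on NODk S+ arrays 1, 2 and 3 and 1.41 to 4.94 on the NODk PreS arrays, against 1.39 to 4.02 and 1.06 to 2.75 in B10k, and its part in the strain difference was not tested. Of the 12 genes named here that differed, 7 belong to the lists of the cell cycle, replication, repair and nucleotide synthesis (Cdc6, Cdkn1a, Chek1, E2f8, Mki67, Rrm2 and Sgo1), and these 7 and Cks2 were more negative in B10k. Genes were named mainly by their B10k differences, which in part sets this direction. E2f8 fell by 4.76 on the log2 scale in B10k and by 1.50 in NODk, a difference of -3.26 (adjusted p = 0.00943), and Sgo1 fell by 5.23 and 2.04 (-3.18, adjusted p = 0.00732). These 2 kept the difference when any 1 of the 18 arrays was left out, while the other 10 lost it without at least 1 array. Mki67 fell by 3.82 and 1.02 (-2.80, adjusted p = 0.0111, and 0.0536 without NODk S+ array 1). Cdkn1a fell in B10k and had a log2 difference of 0.33 in NODk (-2.69, adjusted p = 0.0203, and 0.0934 without NODk S+ array 1). Outside the cycle Il2ra was more negative in B10k (-1.79, adjusted p = 0.0185, and 0.0704 without NODk S+ array 1), and so was Cxcr4 (-2.32, adjusted p = 0.0206, and 0.084 without B10k S+ array 2). Gimap3 was more positive (1.39, adjusted p = 0.0222, and 0.0787 without NODk S+ array 2). The count of 46 depended on single arrays, being 15, 23 and 346 without NODk S+ array 1, 2 or 3 and 100, 19 and 29 without B10k S+ array 1, 2 or 3. With hybridization day as a block it was 0, with 857 at an unadjusted p under 0.05.

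**Figure D5:**
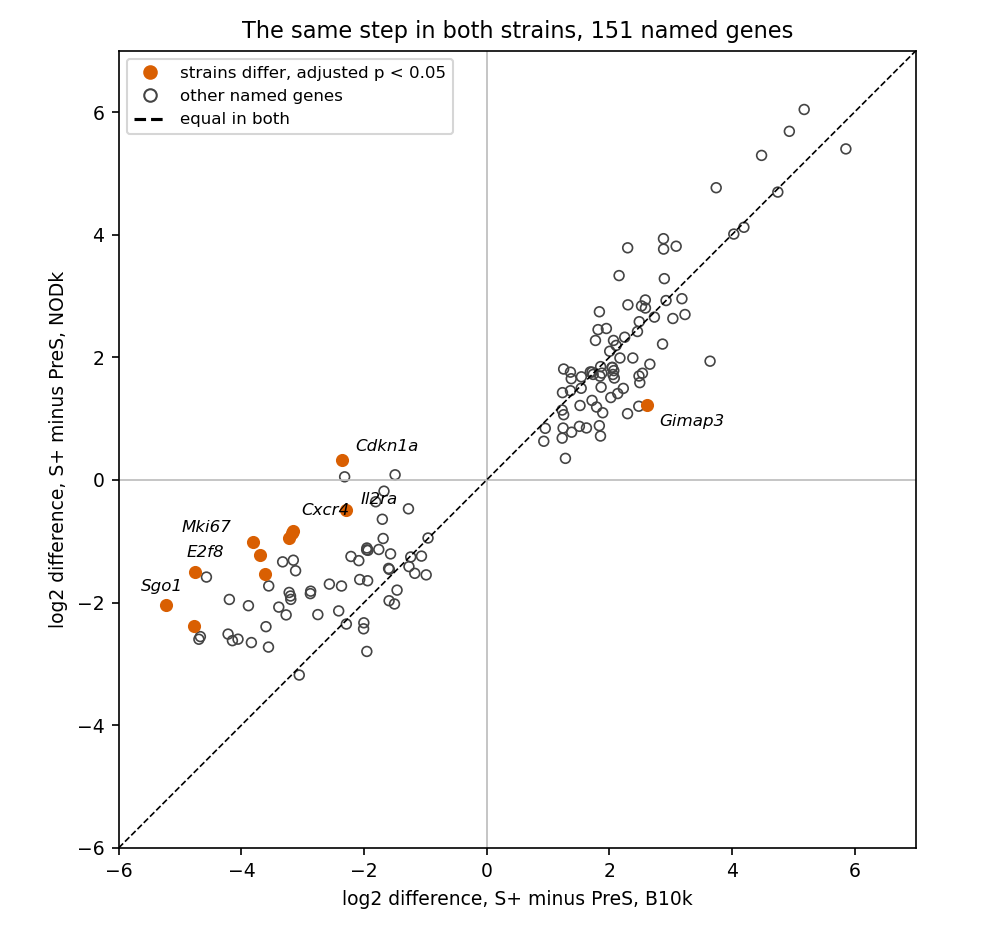
Log2 difference between S+ and PreS arrays in B10k (x axis, 3 against 6 arrays) and in NODk (y axis, 3 against 6 other arrays) for the genes named in the text with a call, 1 point per gene. Filled points differed between the strains (limma interaction, adjusted p under 0.05), and most of them lie at the left above the line of equality, with a deeper fall in B10k. The genes were named mainly by their B10k differences, so smaller differences in NODk are in part set by that choice.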

How the data were processed

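Thymocytes of B10k and NODk mice were measured on 24 Affymetrix arrays, 3 for each of 8 conditions, and RNA came from 100000 to 1000000 sorted cells per sample. The authors deposited MAS 5.0 signal values on a linear scale, scaled to 1 target per array. The number of arrays limits the precision. Each condition is described as 3 independent pools, and nothing further was given on shared animals. Detection calls were not used here.

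From 22690 probesets 64 controls were removed, 33 zeros were set to 0.1, and log2 signals were standardized to a common mean and SD per array. A probeset stayed in the test if its signal reached 32 on each of the 3 arrays of some condition, which left 12838 of 22626. Symbols came from the platform annotation, which can be old (20380 probesets with 1 symbol, 691 with several, 1555 with none, and 0 symbols changed on checking against RefSeq), and a gene is represented by its kept probeset of highest mean signal. Reported signals are the deposited values, and log2 differences are of standardized values. Differences were tested with limma 3.58.1 in R 4.3.3 on the 12 B10k arrays of PreS (6, both genotypes), S+ and S- cells, S- being CD4+CD8low cells of TCR insHEL mice, which share in the estimate of the spread alone, with Benjamini-Hochberg adjustment at 0.05. The strain difference was fitted over all 24 arrays. The fitting code was tested on simulated data.

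The comparison and the gene lists were chosen with earlier results of these data known. Genes were named from calls with no overlap between groups and a mean of at least 100 in the higher group. These were the 15 largest on each side, the 15 largest with such a mean in both groups, and up to 4 on each side in each list. The 2 brightest members not called in each list and the members of the marker lists could also be named. Of these, calls that held when any 1 array was left out were preferred. Alternatives were other scalings, a floor, other filters, the replicate number or hybridization day as a block, array weights, an RNA quality covariate, other sets of arrays, the methods' t-test and leaving out each array. Promoter stretches are from RefSeq, build GRCm38.p6. Some results are not reported here.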

Additional observations from a re-analysis of the deposited data

Results flagged for a closer look

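In 5 of the 166 genes examined, 1 of the 6 PreS arrays lay apart from the others, with a ratio of its gap to the nearest other array over the whole range, on the log2 scale, above Dixon's critical value. A ratio of that size is met by chance in about 1 of 20 groups. The highest value was that of PreS TCR array 2 for Cd7 (20.2, ratio 0.638), of PreS TCR insHEL array 3 for H2-D1 (590.4, ratio 0.775) and of PreS TCR array 3 for Ifi27l2a (434.6, ratio 0.741). The lowest was that of PreS TCR insHEL array 1 for Slfn1 (3.3, ratio 0.72) and of PreS TCR array 3 for Tnfrsf9 (9.8, ratio 0.665). In these 5 genes every S+ value stayed above every PreS value, which was a condition of naming.

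In 12 genes named the S+ to PreS difference was unequal in the strains (limma interaction), and the B10k minus NODk value was -2.38 for Cdc6 (adjusted p = 0.0222), -2.69 for Cdkn1a (0.0203), -2.28 for Chek1 (0.041), -2.09 for Cks2 (0.0185), -2.32 for Cxcr4 (0.0206) and -3.26 for E2f8 (0.00943). It was 1.39 for Gimap3 (0.0222), -1.79 for Il2ra (0.0185), -2.80 for Mki67 (0.0111), -2.31 for Ptcra (0.0215), -2.47 for Rrm2 (0.0321) and -3.18 for Sgo1 (0.00732). Only E2f8 and Sgo1 passed with each of the 18 arrays left out in turn, and none of the 12 passed with hybridization day as a block (adjusted p = 0.128 to 0.462).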

How the results depend on the processing

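The S+ to PreS counts of 946 higher and 1212 lower probesets became 416 and 699 with hybridization day as a block and 519 and 723 with the PreS arrays of TCR mice alone. Leaving out 1 array gave 623 to 924 higher and 863 to 1217 lower. All 2158 main calls kept their sign without any 1 S+ array and with the day block, under which 983 kept their call. The calls were made with these same arrays, so their signs were nearly fixed. The other alternatives stayed within 1.5 times, among them MAS 5.0 scaling alone (1085 and 1095, with the median of all probesets at 0.11 in place of 0.04) and the methods' t-test (869 and 1115 after adjustment, 3669 at an unadjusted p under 0.05). The strain difference of 46 probesets became 25 with no filter, 0 with the day block, 572 with array weights and 15 to 346 without 1 array. Same-numbered replicates did not deviate together in all pairs (correlations -0.168 to 0.545 in 6 pairs), so the numbers were not taken to pair samples. With the replicate block 930 were higher and 1186 lower, and 52 differed between the strains. Naming had preferred calls that held when any 1 array was left out. Of 151 called genes named beside Dnmt3a, 145 kept their call under every alternative, and the other 6 are given in the report. None reversed, which the shared arrays nearly fixed, and 7 of 15 genes named without a call gained it under some alternative. With the day block the list counts fell from 9 to 4 for cytokine receptors, from 8 to 3 for adhesion genes, from 10 to 4 for actin regulators, from 11 to 1 for mitochondrial ribosomal proteins, from 17 to 9 for nucleotide genes and from 15 to 7 for nuclear pore genes. The cause of these shifts was not tested. Signals near 32 limit the size of changes in dim genes.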
